A study of Mus musculus with 8 samples.

Results

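Apolipoprotein genes of the liver were taken as the array probes whose RefSeq accession maps to Apoa1, Apoa2, Apoa4, Apoa5, Apob, Apoc1, Apoc2, Apoc3, Apoe or Apom. Of these 10 genes, 9 were matched to a probe, among 24921 genes or transcripts tested. Apoc2 had no matched probe and is not analysed here. Each gene is represented by its brightest probe among those clearly above background on 4 or more arrays. All 9 genes passed that filter on 8 of 8 arrays.

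Liver RNA was measured in 8 female B6C3F1 mice, a hybrid strain, on the 8 one-colour Agilent arrays of 1 slide. The vehicle group of 4 mice, replicates 2, 3, 4 and 6, had corn oil alone. The furan group of 4 mice, replicates 41, 42, 43 and 44, had a furan dose of 8 mg per kg in the same oil. Furan, a volatile product of heated food, damages rodent liver. All mice were bought at 5 to 6 weeks of age, were dosed by gavage for 21 days and were sampled 4 hours after the last dose, so every value describes 1 dose at 1 time. The comparison asked whether liver transcripts differed after this exposure.

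Apolipoproteins are the protein part of the particles that carry fat and cholesterol in blood, and the liver secretes most of them. Apolipoprotein B forms the backbone of very low density lipoprotein, the A-I and A-II proteins belong to high density lipoprotein, and the small C proteins and apolipoprotein E move between particles and steer lipolysis and uptake. Several of the genes sit in clusters, and their transcription in hepatocytes depends on liver-enriched nuclear receptors such as HNF4A.

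The share of probe spots well above background was 86.2% on the array of vehicle replicate 2 and 55.1% to 69.4% on the other 7. No array had a saturated spot. Of 9 tested hepatocyte markers, limma called 0 (0 at an unadjusted p under 0.05). Their summed level, relative to the 75th percentile of the array on a linear scale, was 6542 to 8970 on the vehicle arrays and 6831 to 7913 on the furan arrays. In whole liver, fewer cells of a type and less RNA per cell cannot be told apart. Levels below are log2 signals minus the 75th percentile of the same array, while each log2 fold change is furan minus vehicle with its standard error from limma. A probe's level depends on its own binding, so levels are not ranked between genes. With 4 arrays a group, their number limits the precision.

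No apolipoprotein gene differed between the groups by more than the test could separate from the spread between mice. Of the 9 genes, limma put 0 past an adjusted p of 0.05, against 4.18% of all tested features, 2.87% higher and 1.31% lower. At an unadjusted p under 0.05 there were 0 of 9, against 23.8% of all features, and the lowest unadjusted p was 0.0778, that of Apoa5. This 0 depended on the processing. In the authors' value table it was 2 of 9, beside 5271 of all features, and with a shift by the brightest 25% of features also 2. It was 1 with quantile normalization, normexp, trend and robust or array weights, and 0 or 1 when 1 array was left out. With no shift or a median shift it stayed at 0. In each of the 9 genes the vehicle and furan arrays overlapped, while the groups did not overlap in 18.2% of the 24810 features measured on all arrays. The log2 fold changes ran from -0.31 for Apoa5 to 0.30 for Apoa4, with a median of -0.08 beside -0.09 for all features. Of the 9 values, 7 lay below 0 (77.8%), as did 60.2% of all features, but with no shift of the arrays 2 of the 9 did and with a median shift 0. Among the 2889 features at least as bright as the dimmest of the 9 probes, 3.39% were called and the median was 0.08. The 95% intervals of 7 of the 9 differences lay inside a 1.5-fold change in either direction, and those of Apoa4 and Apoa5 did not. With no shift 8 of the 9 lay inside, and with a median shift 0.

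**Figure D1:**
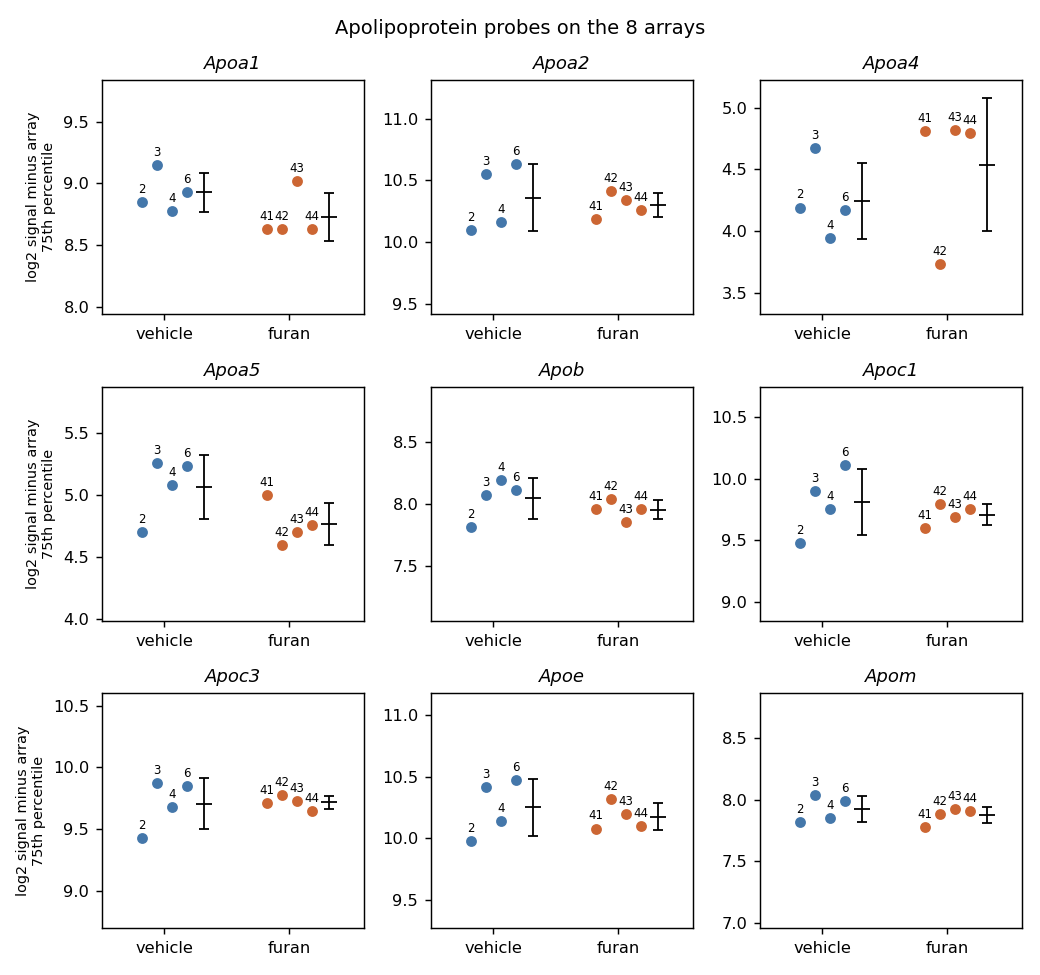
Log2 signal minus the 75th percentile of the array for the brightest probe of each of the 9 apolipoprotein genes, each point 1 mouse with its replicate number, and black bars the group mean ± SD (n = 4); every panel spans the same range of log2 units. The groups overlap in all 9 panels, and in Apoa4 furan replicate 42, at 3.73, lies below the other furan mice and below all vehicle mice.

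Apoa1, Apoc3, Apoa4 and Apoa5 lie side by side on chromosome 9. The bases upstream of 3 of them are shown because these close neighbours had log2 fold changes of different sign, -0.20 for Apoa1, 0.30 for Apoa4 and -0.31 for Apoa5. None of these differences passed, and with a median shift all 3 were above 0, at 0.28, 0.78 and 0.18. Whether the motifs go with the differences was not tested. Each line gives the 250 bases before the RefSeq start, 5′ to 3′, from assembly GRCm38.p6, with any match to a searched motif in capitals. For Apoa5, which has 2 starts in the table, the first is shown.
Apoa1, chr9:46228380-46228629, + strand: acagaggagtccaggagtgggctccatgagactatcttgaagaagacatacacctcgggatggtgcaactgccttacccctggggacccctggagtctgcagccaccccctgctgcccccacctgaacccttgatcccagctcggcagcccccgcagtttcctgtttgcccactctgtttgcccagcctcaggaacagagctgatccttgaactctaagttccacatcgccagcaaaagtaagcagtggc
Apoa4, chr9:46240594-46240843, + strand: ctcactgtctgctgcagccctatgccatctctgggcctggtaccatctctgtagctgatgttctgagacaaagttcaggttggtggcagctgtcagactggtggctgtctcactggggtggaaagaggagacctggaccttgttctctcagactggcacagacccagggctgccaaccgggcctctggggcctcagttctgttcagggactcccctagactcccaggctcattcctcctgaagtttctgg
Apoa5, chr9:46268358-46268607, + strand: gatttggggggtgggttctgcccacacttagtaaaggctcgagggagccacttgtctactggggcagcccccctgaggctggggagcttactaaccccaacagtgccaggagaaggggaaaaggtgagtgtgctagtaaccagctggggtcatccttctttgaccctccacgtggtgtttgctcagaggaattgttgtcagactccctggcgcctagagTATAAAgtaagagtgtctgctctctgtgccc
The motifs searched, on both strands, were CAAAGTCCA, an HNF4-type element, AGGTCA, the core of many nuclear receptor elements, and TATAAA, the TATA box, none of which contains another. The capitals in Apoa5 are a TATAAA match 31 to 26 bases before the start, and Apoa1 and Apoa4 held no match. Over all 32851 promoters of the table, the same 250 bases held CAAAGTCCA in 0.384%, AGGTCA in 14.0% and TATAAA in 12.4%. The table held 12 entries for 8 of the 10 listed genes, and none for Apoc1 and Apoc3. CAAAGTCCA was in 0 of the 12, AGGTCA in 1 entry of Apoa2 and in that of Apoc2, and TATAAA in 1 entry each of Apoa2, Apoe and Apob and in both of Apoa5. A match is a run of letters in this window and was not tested as a binding site. Only these exact letters were searched, and variants of them were not. No match therefore does not show that an element of that type is absent.

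Apob and Apom were 2 of the more evenly measured genes. Apob encodes the structural protein of very low density lipoprotein, 1 molecule of which stays with each particle. Its level was 7.81, 8.07, 8.19 and 8.11 in vehicle replicates 2, 3, 4 and 6 and 7.96, 8.04, 7.85 and 7.96 in furan replicates 41, 42, 43 and 44. The furan values lay inside the vehicle range, and the log2 fold change was -0.09 ± 0.11 (limma adjusted p = 0.576, 95% interval -0.34 to 0.15). The other Apob probe was less even, at 6.18 in vehicle replicate 2 and 6.30 in furan replicate 43 against 7.09 to 7.34 on the other 6 arrays. Each group thus held 1 low array, and this probe's log2 fold change was -0.02 ± 0.33.

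Apom encodes the lipocalin that carries sphingosine 1-phosphate on high density lipoprotein. Its level was 7.82, 8.04, 7.85 and 7.99 in the vehicle mice and 7.78, 7.88, 7.92 and 7.91 in the furan mice, in the same order of replicates. All 8 values lay between 7.78 and 8.04, and the residual SD of 0.09 was the smallest of the 9 genes. The log2 fold change of -0.05 ± 0.09 had a 95% interval of -0.25 to 0.15 (limma adjusted p = 0.713), that is from 0.840-fold to 1.11-fold.

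The proteins that define high density lipoprotein are encoded by Apoa1, which also activates the cholesterol-esterifying enzyme LCAT, and Apoa2. Apoa1 was at 8.85, 9.15, 8.78 and 8.93 in vehicle replicates 2, 3, 4 and 6 and at 8.63, 8.63, 9.02 and 8.63 in furan replicates 41, 42, 43 and 44. The furan mice 41, 42 and 44 lay below every vehicle mouse, and furan replicate 43 lay inside the vehicle range. The log2 fold change was -0.20 ± 0.13 (limma adjusted p = 0.355, 95% interval -0.50 to 0.10), and -0.30 without furan replicate 43 (adjusted p = 0.215). The Apoa1 probe was spotted 10 times on each array, with a spot SD of 0.025 to 0.056 log2 units within an array, smaller than the SD of 0.16 between vehicle mice and 0.20 between furan mice.

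Apoa2 was at 10.10, 10.55, 10.16 and 10.63 in the vehicle mice and at 10.19, 10.41, 10.34 and 10.26 in the furan mice. The furan values again lay inside the vehicle range, and the log2 fold change was -0.06 ± 0.14 (limma adjusted p = 0.803). The other Apoa2 probe gave -0.02 ± 0.17. The brightest Apoa2 probe read 62.8% to 73.8% of the scanner's saturation value and the other 44.4% to 59.2%, so neither was saturated.

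Apolipoprotein E is the ligand through which remnant particles are taken up by hepatocytes, and macrophages make it as well. Apoe was at 9.98, 10.42, 10.14 and 10.47 in vehicle replicates 2, 3, 4 and 6 and at 10.08, 10.32, 10.20 and 10.10 in furan replicates 41, 42, 43 and 44. Vehicle replicates 3 and 6 were the highest and vehicle replicate 2 the lowest, with the furan mice between them, and the log2 fold change was -0.08 ± 0.13 (limma adjusted p = 0.720, 95% interval -0.38 to 0.23). The probe was spotted 10 times per array, of which 7 to 10 spots were usable, with a spot SD of 0.039 to 0.17. Of 9 tested Kupffer cell and macrophage markers, limma called 0 (0 at an unadjusted p under 0.05), their median log2 fold change was -0.12, and their summed level was 136 to 334 on the vehicle arrays and 158 to 203 on the furan arrays. In each of the 9 markers the SD was larger between vehicle mice, at 0.43 to 0.80, than between furan mice, at 0.06 to 0.31. Whether a single vehicle mouse set the sign of their median was not tested. The part of macrophages in the Apoe level was not tested.

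Apoc1 and Apoc3 encode small exchangeable proteins, of which the C-III protein slows the clearance of triglyceride-rich particles. Apoc1 was at 9.48, 9.90, 9.75 and 10.11 in the vehicle mice and at 9.60, 9.79, 9.69 and 9.75 in the furan mice, a log2 fold change of -0.11 ± 0.14 (limma adjusted p = 0.634). Apoc3 was at 9.43, 9.87, 9.68 and 9.85 in the vehicle mice and at 9.71, 9.78, 9.73 and 9.65 in the furan mice, a log2 fold change of 0.01 ± 0.11 (limma adjusted p = 0.968). In both genes every furan value lay inside the vehicle range after the shift. The SD of the shifted values was 0.08 for Apoc1 and 0.06 for Apoc3 in furan mice against 0.27 and 0.20 in vehicle mice. The 75th percentile that was subtracted ran from 8.40 to 8.85 on the vehicle arrays and from 8.60 to 8.90 on the furan arrays. The unscaled median signal of Apoc3 was 279414 to 317072 in vehicle and 314115 to 342509 in furan mice. The part of the shift in these SDs was not tested. After the shift, vehicle replicate 2 was the lowest vehicle mouse for 7 of the 9 apolipoprotein genes. The value subtracted from its array, 8.85, was the highest of the vehicle group. Its unscaled median signal was not the lowest for Apoc1, at 315590 against 304500 in vehicle replicate 3, or for Apoc3, at 297128 against 279414. For Apoa5 it was the lowest without scaling too. Leaving vehicle replicate 2 out moved the median log2 fold change of the 9 genes from -0.08 to -0.17.

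Apoa4 and Apoa5 had the largest differences of the 9 genes, in opposite directions, and neither passed. Apolipoprotein A-IV is made in intestine and, in rodents, in liver. Apoa4 was at 4.19, 4.67, 3.94 and 4.17 in vehicle replicates 2, 3, 4 and 6 and at 4.81, 3.73, 4.82 and 4.79 in furan replicates 41, 42, 43 and 44. The furan mice 41, 43 and 44 were above every vehicle mouse, and furan replicate 42 was below every vehicle mouse. The log2 fold change was 0.30 ± 0.28 with a 95% interval of -0.35 to 0.94 (limma adjusted p = 0.501), so anything from 0.786-fold to 1.92-fold fell within the interval. Without furan replicate 42 the log2 fold change was 0.57 (adjusted p = 0.156).

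Apolipoprotein A-V promotes the removal of triglycerides by lipoprotein lipase and is made almost only in hepatocytes. Apoa5 was at 4.70, 5.26, 5.08 and 5.24 in the vehicle mice and at 5.00, 4.60, 4.70 and 4.76 in the furan mice. Vehicle replicate 2 lay among the furan mice, and the other vehicle mice were above all furan mice. The log2 fold change was -0.31 ± 0.15 with a 95% interval of -0.66 to 0.04 (limma adjusted p = 0.257). Without vehicle replicate 2 it was -0.43 (adjusted p = 0.0918), the lowest adjusted p of any apolipoprotein gene with 1 array removed.

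Because intestine makes several of these proteins, intestinal markers were read from the same arrays. Of 9 intestinal epithelium markers on the array, 4 were bright enough to test, and 1, Fabp2, a fatty acid binding protein gene named after its value was seen, fell by 0.55 ± 0.12 on the log2 scale (limma adjusted p = 0.0439). The other 3 tested markers, also named after their values were seen, did not pass, with log2 fold changes of -0.86 ± 0.22 for Vil1 (0.0676), 0.06 ± 0.25 for Sis and 0.05 ± 0.07 for Anpep. At an unadjusted p under 0.05 there were 0 higher and 2 lower. The probes of Vil1 and Sis were dim, at -2.08 and -4.28 in vehicle mice. Only Fabp2 was read under other scalings. The Fabp2 call was lost whichever single array was removed (0.0636 to 0.120) and with the slide row as a block (0.0636). Alpi was above background on no array, and Lct, Cdx1, Cdx2 and Slc5a1 did not reach 4 arrays. The summed level of the 4 markers was 145 to 171 on the vehicle arrays and 117 to 131 on the furan arrays, a sum made up mostly of Fabp2 and Anpep, and its part in the Apoa4 values was not tested.

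**Figure D2:**
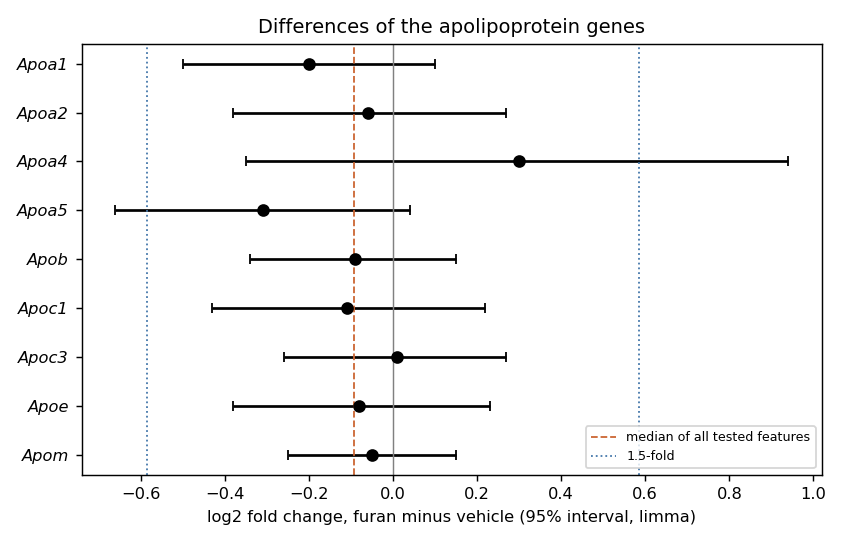
Log2 fold change of each of the 9 apolipoprotein genes, furan minus vehicle, with its 95% interval from limma (4 arrays per group); the dashed line is the median of all 24921 features, at -0.09, and the dotted lines mark a 1.5-fold change in either direction. All 9 intervals include 0, and those of Apoa4 and Apoa5 reach past a dotted line.

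The direction of a small difference depended on how the arrays were scaled. The median log2 fold change of the 9 genes was -0.08 with the shift to the 75th percentile, -0.02 with quantile normalization, -0.21 in the authors' value table, 0.05 with no shift and 0.41 with a median shift. The median of all features was -0.09, 0.05, 0.01, 0.03 and 0.39 in the same order. Of the 9 genes, 8 in the authors' value table lay below the median of all features, against 4 of 9 with the 75th percentile shift. Under 25 alternatives, limma called 0 of the 9 genes in every one, and the lowest adjusted p was 0.0765, for Apoa5 in the authors' value table. Among the 25, a stricter threshold and a test against a 1.5-fold change could not call a gene that the main fit did not. With the slide column as a block no feature at all was called.

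A gene's level relative to the other members does not change when 1 value is subtracted from an array. Relative to the mean of the other 8 genes on the same array, a measure chosen after the values were seen, Apoa4 was at -4.52 ± 0.27 (SD, n = 4) in vehicle and -4.11 ± 0.56 in furan mice, a difference of 0.41. Apoa5 was at -3.59 ± 0.12 and -3.86 ± 0.18, a difference of -0.27, and Apoa1 at 0.75 ± 0.13 and 0.60 ± 0.18, a difference of -0.15. The other 6 genes differed by -0.05 to 0.08, and the groups overlapped in all 9. Differences within a slide column, each column holding 1 array of each group, do depend on the shift to the 75th percentile. After that shift Apoa1 was lower than on the vehicle array in 4 of 4 columns, with differences of -0.13 to -0.30. Its unscaled median signal in column 2 was 185798 in vehicle replicate 3 and 210416 in furan replicate 43. In the other columns that signal was lower in the furan mouse. Apoa5 was lower in 3 of 4, with -0.32 to -0.64, and stood at 0.30 in column 3, which holds vehicle replicate 2. Apoa4 was higher in 3 of 4, with 0.15 to 0.86, and stood at -0.44 in column 1, which holds furan replicate 42.

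**Figure D3:**
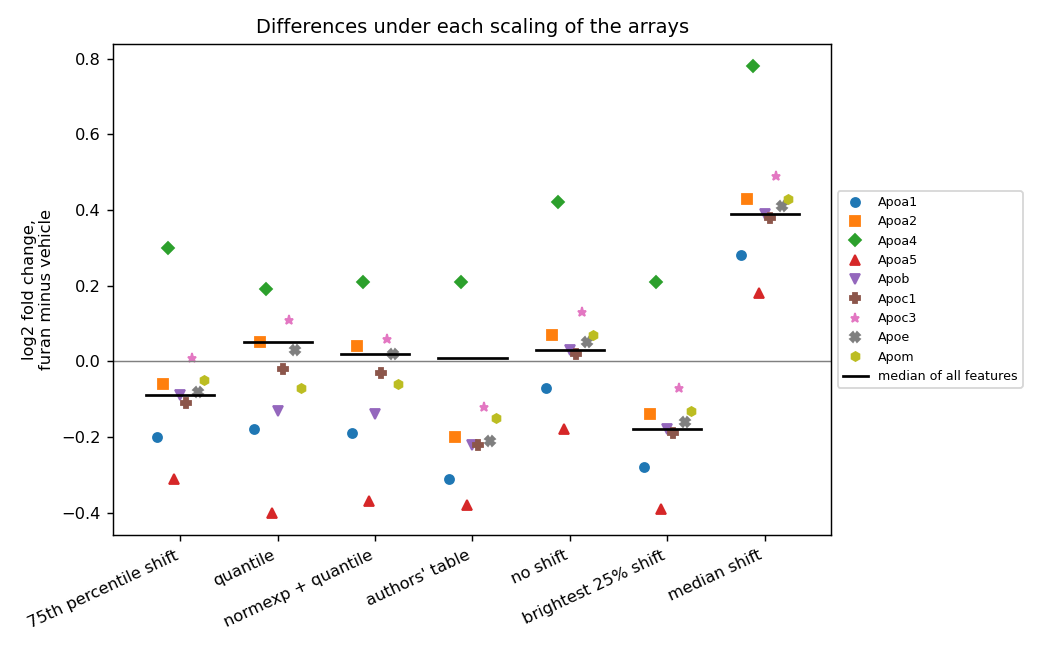
Log2 fold change, furan minus vehicle, of each of the 9 apolipoprotein genes under 7 ways of scaling the arrays, with the black line at the median of all features under the same scaling. Apoa4 is the highest and Apoa5 the lowest of the 9 under each of the 7 scalings, and in the authors' value table all but Apoa4 lie below the black line. The 4 scalings that subtract 1 value from each array move all 9 genes alike and keep their spacing.

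In the RefSeq table for GRCm38.p6 the genes on chromosome 9 stand in the order Pafah1b2, Sik3, Apoa1, Apoc3, Apoa4, Apoa5, Zpr1 and Bud13, leaving out an annotated pseudogene and a long noncoding RNA. Of the 8 fixed neighbours of this cluster and of the cluster on chromosome 7, limma called 2 higher and 0 lower, both on chromosome 9. Over all features 2.87% were called higher and 1.31% lower. Pafah1b2, a subunit of an enzyme that inactivates platelet-activating factor, went from -1.29 ± 0.11 (SD, n = 4) to -0.57 ± 0.07, a rise of 0.73 ± 0.09 (adjusted p = 0.00929). Bud13, a splicing factor gene, rose by 0.46 ± 0.09 (adjusted p = 0.0392), a call that survived in 0 of 8 fits with 1 array removed (0.0519 to 0.106). For Zpr1, a zinc finger gene between Apoa5 and Bud13, the log2 fold change was 0.52 ± 0.20 (0.179). The Pafah1b2 call held in each of those 8 fits (adjusted p up to 0.0430). It was lost with no shift (0.0561), a median shift (0.324), the slide column as a block (0.117) and treat against 1.5-fold. Of the 4 apolipoprotein genes between these neighbours, limma called 0. The test of the difference between the neighbours and the cluster genes was not run.

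**Figure D4:**
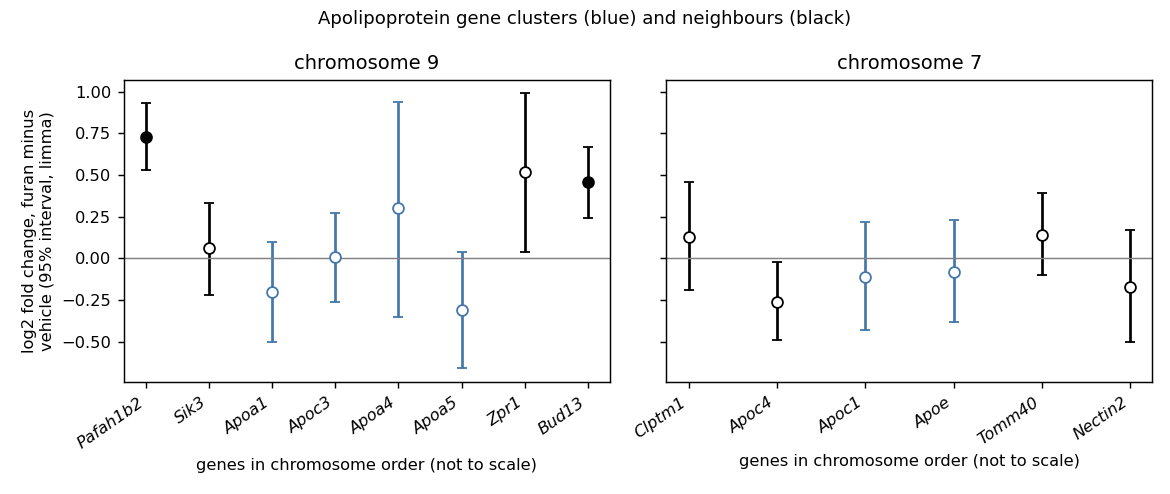
Log2 fold change with 95% interval (limma, 4 arrays per group) of the genes of the chromosome 9 and chromosome 7 apolipoprotein clusters in chromosome order, not to scale, apolipoprotein genes of the set in blue and neighbours in black, filled where the adjusted p was under 0.05. The 2 filled points are Pafah1b2 and Bud13 at the ends of the chromosome 9 cluster, at 0.73 and 0.46.

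On chromosome 7 the order is Clptm1, Apoc2, Apoc4, Apoc1, Apoe, Tomm40 and Nectin2, leaving out 2 predicted genes. Apoc4, a further apolipoprotein gene of this cluster outside the set, went from 8.30 ± 0.16 to 8.04 ± 0.06 (SD, n = 4), a log2 fold change of -0.26 ± 0.10 that did not pass (limma adjusted p = 0.177). The log2 fold changes of Apoc1 and Apoe beside it were -0.11 and -0.08.

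Genes that act with apolipoproteins were read from lists fixed by role. The counts below stand beside shares over all features of 4.18% called and 23.8% at an unadjusted limma p under 0.05. Of 18 genes listed as other apolipoprotein and lipoprotein-bound proteins, limma called 0 (4 higher and 3 lower at an unadjusted p under 0.05). Their median log2 fold change was -0.02. Saa2, an acute phase apolipoprotein gene nearly identical to Saa1, so that probes may share signal, had 0.74 ± 0.17 (adjusted p = 0.0555). It passed with the filter on all 8 arrays (0.0337), trend and robust (0.0178), array weights (0.0455) and the slide row as a block (0.0375). Apod, a lipocalin gene, had -0.45 ± 0.11 (0.0679), passed with the filter on all 8 arrays (0.0467), and stood at 0.01 with quantile normalization. Clu, the clusterin gene, had -0.03 ± 0.11, Apoh, which encodes beta-2-glycoprotein I, -0.17 ± 0.09, Lcat, the cholesterol-esterifying enzyme gene, 0.07 ± 0.13, and Pltp, the phospholipid transfer protein gene, -0.36 ± 0.25.

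The assembly and secretion list was drawn up for the building and export of very low density lipoprotein. The role of each listed gene in it was not tested. Of 21 tested, limma called 1 higher and 0 lower (6 and 2 at an unadjusted p under 0.05), with a median of 0.10. Sec24d, a cargo-binding coat subunit of vesicles leaving the endoplasmic reticulum, rose by 0.63 ± 0.13 (adjusted p = 0.0396), which did not pass in any of 8 fits with 1 array removed (0.0615 to 0.108). Mttp, which encodes the transfer protein that loads lipid onto apolipoprotein B, went from 3.49 ± 0.06 to 3.86 ± 0.18 (SD, n = 4), a log2 fold change of 0.37 ± 0.11 that did not pass (limma adjusted p = 0.0909) except with trend and robust (0.0438). Mia3, which helps load bulky cargo for export, had -0.38 ± 0.09 (0.0575) and passed under 7 alternatives with all 8 arrays kept, among them the authors' value table (0.0133). Apob, the cargo of this machinery, had -0.09.

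Of 16 receptor and uptake genes 14 were tested, all but Lrp2 and Lrp8, and limma called 0 (1 higher and 2 lower at an unadjusted p under 0.05), with a median of 0.05. Scarb1, the high density lipoprotein receptor gene, had -0.07 ± 0.10, and the fatty acid transporter gene Cd36 0.39 ± 0.14 (limma adjusted p = 0.146). Gpihbp1, which anchors lipoprotein lipase to capillary walls, had -0.30 ± 0.11 (0.149) and passed with normexp (0.0467) and in the authors' value table (0.0399).

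Of 15 lipase and sterol transfer genes, limma called 0 (2 higher and 2 lower at an unadjusted p under 0.05), with a median of -0.08. Lpl, the lipoprotein lipase gene that apolipoproteins A-V, C-II and C-III act on, had 0.82 ± 0.28 (limma adjusted p = 0.131), and Angptl8, whose protein inhibits that lipase, 0.66 ± 0.22 (0.128). Lipc, the hepatic lipase gene, had -0.60 ± 0.23 (0.165), and Abca1, the transporter that hands cholesterol to apolipoprotein A-I, 0.28 ± 0.15 (0.276).

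Of 26 transcriptional regulators of apolipoprotein genes, read by their brightest probes, limma called 0 (1 higher and 0 lower at an unadjusted p under 0.05), with a median of 0.01. The 1 was Hnf4a, the nuclear receptor gene behind much of hepatocyte transcription, at 7.47 ± 0.06 in vehicle and 7.78 ± 0.11 in furan mice (SD, n = 4). Its log2 fold change of 0.31 ± 0.09 did not pass (limma adjusted p = 0.0859) except with trend and robust (0.0335). The probes of Usf2, a gene named after its values were seen, disagreed. The brightest Usf2 probe had 0.06 ± 0.14, while another had -0.66 and passed with each probe on its own (limma adjusted p = 0.0274). Foxa2, a forkhead factor gene, had 0.30 ± 0.13 (0.216), Ppara, the fatty acid receptor gene, -0.16 ± 0.13, and Creb3l3, whose product activates Apoa4 and Apoa5, -0.07 ± 0.13. Alb, the albumin gene, read as a hepatocyte reference, had -0.02 ± 0.17.

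Other cells of the liver and organs beside it were read for the same arrays. The share of all features at an unadjusted limma p under 0.05 was 23.8%. Limma called 0 of 6 bile duct, 0 of 7 stellate and fibroblast, 0 of 6 endothelial, 0 of 5 blood and 0 of 5 tested exocrine pancreas markers (at an unadjusted p under 0.05 0, 2, 2, 0 and 4 in the same order). None of the 5 pancreas markers passed, 4 had values below 0, from -0.38 for Clps to -1.06 for Cela2a, and Cela1 had 0.44 ± 0.32. Amy2a5 had -0.48 ± 0.18 and Ctrb1 -0.48 ± 0.15. All 5 genes were named after their values were seen. The probes of Clps, Cela2a and Cela1 were dim, at -1.68, -2.82 and -1.31 in vehicle mice. Those of Ctrb1 and Amy2a5 were brighter, at 0.25 and 3.48. The values of the 5 genes under other scalings were not read. The list's summed level, made up mostly of Amy2a5, was 11.29 to 15.01 on the vehicle arrays and 7.83 to 11.25 on the furan arrays. Pnlip was above background on no array. The summed level of the 9 apolipoprotein probes was 4473 to 6108 on the vehicle arrays and 4787 to 5335 on the furan arrays, so the furan range lay inside the vehicle range.

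For the 3 members with the smallest adjusted p, the genes with the most similar levels over the 8 arrays were named as a description, since arrays share their scale and group. Apoa5 was closest to Agxt2, an aminotransferase gene (Pearson r = 0.980), Vwa8 (0.978) and the dipeptidyl peptidase gene Dpp4 (0.974), out of 14374 genes compared, of which 0.786% had an r over 0.9. Apoa1 was closest to Gsdmd, the gasdermin D gene (0.963), Ifi27 (0.963) and Dhrs1 (0.957), with 0.271% over 0.9. Apoa4 was closest to Stx4a, a syntaxin gene (0.959), the stress-induced factor gene Ddit3 (0.954) and Acadm, a fatty acid oxidation gene (0.936), with 0.104% over 0.9.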

How the data were processed

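Per the file headers, the scanner files hold the fluorescence intensity of each spot from 1 colour on 1 slide, and the reading software was Agilent Feature Extraction 11.0.1.1, which also wrote a background-subtracted and detrended processed intensity. The value table that the authors deposited holds log2 values. The normalization behind them is not stated in the labels or headers, and so centring stays unknown. The table's columns correlated at 0.998 or more with the log2 median spot intensity. Its column medians were 6.53 to 6.74.

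Control spots (3671 per array) and outlier-marked spots (128 to 315) were left out. From the log2 of the processed intensity the 75th percentile of each array was subtracted, spots of a probe were averaged, and probes well above background on 4 or more of 8 arrays were kept. The brightest kept probe stood for each gene. Symbols came from a RefSeq table for GRCm38.p6 (27235 of the 28685 probes with a RefSeq accession). Furan was compared with vehicle in R 4.3.3 by lmFit and eBayes of limma 3.58.1. Its 2-sided p-values were adjusted by Benjamini and Hochberg over 24921 features and called at an adjusted p under 0.05. The block design named in the labels is not resolved to animals, so no block was used. The fit was tested on simulated data. Plots used matplotlib 3.10.9.

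The members, lists and alternatives were chosen with earlier results of these data known. Named genes were the members, those past the threshold in each list with up to 2 others of smallest adjusted p, and 15 fixed genes. Some genes that the rule names are not reported here. The values relative to other members, within slide positions and by spot were added after seeing the data.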

Additional observations from a re-analysis of the deposited data

Results flagged for a closer look

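In 3 of 22 sets of 4 arrays, 1 array lay far from the other 3 by Dixon's ratio of its gap to the range of the set, with a critical value of 0.829 that chance passes in about 1 of 20 sets. Apoa1 was 9.02 in furan replicate 43 (ratio 0.988), above the other furan mice, which were all at 8.63. Apoa4 was 3.73 in furan replicate 42 (ratio 0.979), below the other furan mice at 4.79 to 4.82. The other Apob probe was 6.18 in vehicle replicate 2 (ratio 0.867), below the other vehicle mice at 7.19 to 7.34, while the brightest Apob probe on that array was 7.81.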

How the results depend on the processing

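Under 25 alternatives limma called 0 of the 9 apolipoprotein genes in each, in 225 readings of a gene. These are not all separate fits, since an adjusted p under 0.01 reads the main fit again. That threshold and treat against 1.5-fold could not call a gene that the main fit did not. The median log2 fold change of the 9 genes was 0.41 with a median shift and -0.17 to 0.00 when 1 array was left out. The count of called features, 1041, was 86 with a median shift, 261 with no shift, 1668 in the authors' value table, 163 without the filter on dim probes, 1733 with the filter on all 8 arrays, 2001 with trend and robust, 1790 with array weights, 101 at an adjusted p under 0.01, 22 with treat against 1.5-fold, 0 with the slide column as a block (4723 at an unadjusted p under 0.05 in limma), and 195 to 927 when 1 array was left out, lowest without furan replicate 41 or 43 and highest without vehicle replicate 2. The cause was not tested.

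These log2 fold changes changed sign. With quantile normalization they were Apoa2 0.05, Apoe 0.03, Apod 0.01 and Alb 0.10. With normexp they were Apoa2 0.04, Apoe 0.02, Alb 0.10 and Clu 0.01. With no shift they were Apoa2 0.07, Apob 0.03, Apoc1 0.02, Apoe 0.05, Apom 0.07, Alb 0.11, Scarb1 0.06, Creb3l3 0.06 and Clu 0.10. With a median shift, which moved the median of all features to 0.39, they were Apoa1 0.28, Apoa2 0.43, Apoa5 0.18, Apob 0.39, Apoc1 0.38, Apoe 0.41, Apom 0.43, Apod 0.04, Mia3 0.11, Gpihbp1 0.19, Apoc4 0.23, Alb 0.47, Scarb1 0.42, Pltp 0.13, Creb3l3 0.41, Ppara 0.33, Apoh 0.31 and Clu 0.46. With the brightest 25% shift they were Apoc3 -0.07 and Lcat -0.01, in the authors' value table Apoc3 -0.12 and Lcat -0.02, and with array weights Apoc3 -0.06 and Lcat -0.01. When 1 array was left out the ranges that crossed or reached 0 were Apoa2 -0.14 to 0.03, Apoc1 -0.22 to 0.00, Apoc3 -0.08 to 0.06, Apoe -0.17 to 0.00, Alb -0.13 to 0.11, Clu -0.09 to 0.02, Creb3l3 -0.16 to 0.00 and Lcat -0.03 to 0.12. In the authors' value table Apoc4 and Apoh passed (limma adjusted p = 0.0394 and 0.0404). Besides the fits with 1 array left out, an adjusted p under 0.01 and treat, the calls of Sec24d, Bud13 and Fabp2 were lost with a median shift (adjusted p = 0.460, 0.497 and 0.931), no shift (0.0923, 0.0779 and 0.218), no filter on dim probes (0.111, 0.119 and 0.124), the slide row as a block (0.0556, 0.0599 and 0.0636) and the slide column as a block (0.170, 0.161 and 0.151). Bud13 was also lost with quantile normalization (0.134) and normexp (0.0789), and Fabp2 with each probe on its own (0.0520). In these fits the log2 fold changes were 0.63 to 1.11 for Sec24d, 0.46 to 0.94 for Bud13 and -0.55 to -0.06 for Fabp2. No paired analysis was possible because the groups share no replicate numbers to pair mice by. The slide column, which pairs 1 array of each group by position and not by animal, is the block given above.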
